A study of Mus musculus with 6 samples.

Results

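The genes described here are 42 genes of DNA replication and cell division, measured in the stria vascularis of the mouse cochlea with and without pendrin. They were fixed by symbol, and every probe set (a group of short probes that together measure 1 transcript) whose platform annotation gives exactly 1 of these symbols was taken. That gave 98 of the 45037 probe sets that are not controls, for 41 of the 42 genes. The cyclin gene Ccnb1 had no probe set of exactly that symbol and is not analysed here. The genes were divided into 16 of S phase, when DNA is copied, and 26 of mitosis, when the copies are separated. The latter class includes genes that are made in the G2 phase before division.

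The stria vascularis is the vascularised epithelium of the cochlear lateral wall that secretes potassium into the endolymph. Its RNA was measured on 6 arrays at postnatal day 10, 3 from Slc26a4 heterozygote mice (replicates 1, 3 and 5) and 3 from Slc26a4 knockout mice (replicates 2, 4 and 6). Pendrin, the product of Slc26a4, exchanges anions across membranes of the inner ear. The heterozygous controls keep 1 working copy of the gene, so no array holds fully wild-type tissue. The strain, the sex and any pooling of mice are not given in the sources used here. As the labels do not say that arrays came from separate animals, the p-values rest on a spread between arrays that may in part be technical.

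Cells that divide make replication proteins in waves. Before and during S phase, E2F transcription factors drive genes of the replicative helicase, of deoxynucleotide synthesis and of the polymerase clamp. Later, the MuvB complex with B-Myb and FoxM1 drives genes of the spindle, the kinetochore and the mitotic kinases, and most of these transcripts are scarce in resting cells. In a whole tissue, fewer dividing cells and less RNA per dividing cell cannot be told apart.

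The 2 classes differ in the promoter letters by which they are known to be timed, which is why a few promoters are shown first. RefSeq promoter windows (build GRCm38.p6, 250 bases before to 50 after the start site) were found for 33 of the 42 genes. Exact letters were searched on both strands: TTTCCCGC, TTTGGCGC, TTTCGCGC or TTTGCCGC as the E2F motif, TTTGAA or TTCGAA as the cell cycle homology region (CHR, the contact of MuvB), and CCAAT as the CCAAT box (bound by NF-Y). None of these letters contains another, but matches may overlap in the sequence, as the E2F matches of Mcm6 do. A CHR match was present in 17 of 21 mitosis genes (81%) and in 2 of 12 S phase genes (16.7%), against 21.7% of all 27025 genes with a window. An E2F match was present in 5 of 12 S phase genes (41.7%) and in 1 of 21 mitosis genes (4.76%, Cdk1), against 2.6% of all genes. More than 1 CCAAT box was present in 13 of 21 mitosis genes (61.9%) and in 6 of 12 S phase genes (50%), against 13.3% of all genes. A match is a description of letters and not a measured binding site. The 150 bases before the start site are given below for 6 mitosis genes and 3 S phase genes whose log2 differences are given later. Every match that lies wholly inside the stretch is in capitals.
Cdca3, chr6:124830026-124830175, plus strand: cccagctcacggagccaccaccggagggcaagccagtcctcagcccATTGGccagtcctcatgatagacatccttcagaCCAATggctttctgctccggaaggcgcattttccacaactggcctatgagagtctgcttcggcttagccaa
Hmmr, chr11:40733438-40733587, minus strand: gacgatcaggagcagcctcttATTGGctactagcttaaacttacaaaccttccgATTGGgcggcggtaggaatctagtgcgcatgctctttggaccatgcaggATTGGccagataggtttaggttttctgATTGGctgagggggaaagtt
Ccnb2, chr9:70421555-70421704, minus strand: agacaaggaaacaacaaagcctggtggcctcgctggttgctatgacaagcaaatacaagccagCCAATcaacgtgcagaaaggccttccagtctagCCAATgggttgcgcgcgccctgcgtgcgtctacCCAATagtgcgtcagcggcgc
Top2a, chr11:99024190-99024339, minus strand: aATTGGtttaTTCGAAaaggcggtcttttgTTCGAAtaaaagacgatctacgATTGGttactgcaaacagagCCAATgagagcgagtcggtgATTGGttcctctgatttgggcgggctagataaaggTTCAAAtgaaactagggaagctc
Cdc20, chr4:118437344-118437493, minus strand: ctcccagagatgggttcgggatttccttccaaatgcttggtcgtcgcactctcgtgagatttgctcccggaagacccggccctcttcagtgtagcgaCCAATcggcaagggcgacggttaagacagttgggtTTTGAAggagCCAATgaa
Cdk1, chr10:69352913-69353062, minus strand: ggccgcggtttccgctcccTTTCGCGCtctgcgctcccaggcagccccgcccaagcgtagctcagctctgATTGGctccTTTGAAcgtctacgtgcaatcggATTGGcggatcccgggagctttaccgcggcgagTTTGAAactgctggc
Mcm6, chr1:128359706-128359855, minus strand: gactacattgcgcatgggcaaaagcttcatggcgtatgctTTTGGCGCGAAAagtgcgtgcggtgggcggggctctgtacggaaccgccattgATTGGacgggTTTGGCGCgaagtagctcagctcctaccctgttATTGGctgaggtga
Rrm2, chr12:24708104-24708253, plus strand: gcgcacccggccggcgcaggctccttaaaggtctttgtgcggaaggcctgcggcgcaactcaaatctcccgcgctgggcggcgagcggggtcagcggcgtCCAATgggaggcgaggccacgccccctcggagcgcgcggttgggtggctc
Pcna, chr2:132253181-132253330, minus strand: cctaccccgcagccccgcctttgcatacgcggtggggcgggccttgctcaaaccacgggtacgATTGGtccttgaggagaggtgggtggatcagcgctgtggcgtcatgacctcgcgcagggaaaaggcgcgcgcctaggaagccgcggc
Top2a carried 3 CHR matches and 4 CCAAT boxes in this stretch, Cdk1 carried 2 of each with an E2F match farther upstream, and Cdc20 had its CHR match between its CCAAT boxes. Hmmr had 4 CCAAT boxes, and its CHR match lay just past the start site, beginning at base 9 after it, outside the stretch shown. The CHR matches of Ccnb2 and Cdca3 likewise began at bases 5 and 31 after the start site, with a second Ccnb2 match at base -167. Mcm6 had 3 E2F matches, of which the first pair overlap, and no CHR match. Rrm2 and Pcna had 1 CCAAT box each and no match to the other motifs.

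Of the 98 probe sets, 51 passed a filter that removed the 40% of probe sets with the lowest mean over all arrays (a signal under about 43.9), and they stood for 34 genes, 15 of S phase and 19 of mitosis. The brightest tested probe set stood for each gene. Values are the authors' signal intensity on a linear scale, and differences are knockout minus heterozygous on the scale log2(signal + 16), which understates the change of dim genes. The mitosis genes were mostly dim: with the dimmest 60% of probe sets removed, 6 of them remained against 11 of S phase. Just inside the filter were Gins1 on its second probe set (34.8 to 72.8 over the 6 arrays) and Kif20a (30.6 to 86.8), and just outside it were Top2a on another probe set (31.5 to 55.4) and Aurkb (27.8 to 63.3). Kif20a was the only gene of these 34 that passed through its knockout values alone, its heterozygous mean being under the limit. In reverse, a Foxm1 probe set described below was removed through its knockout values, its heterozygous samples lying above the limit.

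The targeted gene and the arrays were checked on the same table. Slc26a4 stood at 220.8, 248 and 1006 in heterozygous samples and at 75.5, 106 and 154 in knockout samples, so the groups did not overlap. The log2 difference was -1.69 ± 0.50 (SE) and did not pass (limma adjusted p = 0.370). Whether its probes lie in the deleted stretch was not analysed here. Knockout replicate 4 stood apart, with a mean correlation of 0.963 with the other arrays over all probe sets, where the other 5 arrays had 0.979 to 0.982. Strial markers were bright, with 36007 to 42091 as the summed signal of 9 intermediate cell and melanocyte genes and 40681 to 47576 of 8 marginal cell genes over the arrays, but the melanocyte gene Tyrp1 had a mean of 6.91 on its brightest probe set, under the filter.

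Most mitosis genes had a higher mean in knockout samples, and most S phase genes did not, but no single gene passed the test. Of the 19 mitosis genes tested, 18 had a higher mean in knockout samples, with a median log2 difference of 0.47 and a range from -0.06 for Aurka to 1.15 for Hmmr. Without Kif20a, which passed the filter through its knockout values alone, 17 of 18 were higher with a median of 0.45. Of the 15 S phase genes, 6 were higher and 9 lower, with a median of -0.03 and a range from -0.31 for Pcna to 0.498 for Rrm2. Over all 12428 genes tested, 43.2% were higher and the median was -0.04. The members were chosen with earlier results of these data known, so these counts are a description and not an independent test. With quantile normalisation 13 of 19 mitosis and 4 of 15 S phase genes were higher, beside 37.9% of all genes. With median centring the counts were 13 of 19 and 3 of 15, beside 15.2% of all genes, whose median it moved by -0.20.

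The test was limma on all 27022 probe sets, adjusted by Benjamini-Hochberg, and a call needed an adjusted p under 0.05. It called 0 of the 51 member probe sets, beside 1 of all probe sets (0.0037%), and the adjusted p of the members ranged from 0.370 to 0.989. At an unadjusted p under 0.05, 6 of the 51 were higher and 0 lower, beside 9.14% and 2.47% of all probe sets, and 5.33% and 2.66% of those with 1 symbol. By gene, 5 of 34 were higher (Rrm2, Hmmr, Tpx2, Cdca3 and Kif20a) and 0 were lower, beside 3.15% and 3.2% of all genes. By class these were 4 of 19 mitosis genes and 1 of 15 S phase genes. The lowest knockout sample exceeded the highest heterozygous one for 5 genes (Tpx2, Kif20a, Ccnb2, Birc5 and Rrm2), beside 6.05% of all genes. The reverse held for 1 gene, Gins2, beside 7.03% of all genes. Kif20a, counted among the higher genes by p and among the 5 without overlap, passed the filter through its knockout values alone.

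**Figure D1:**
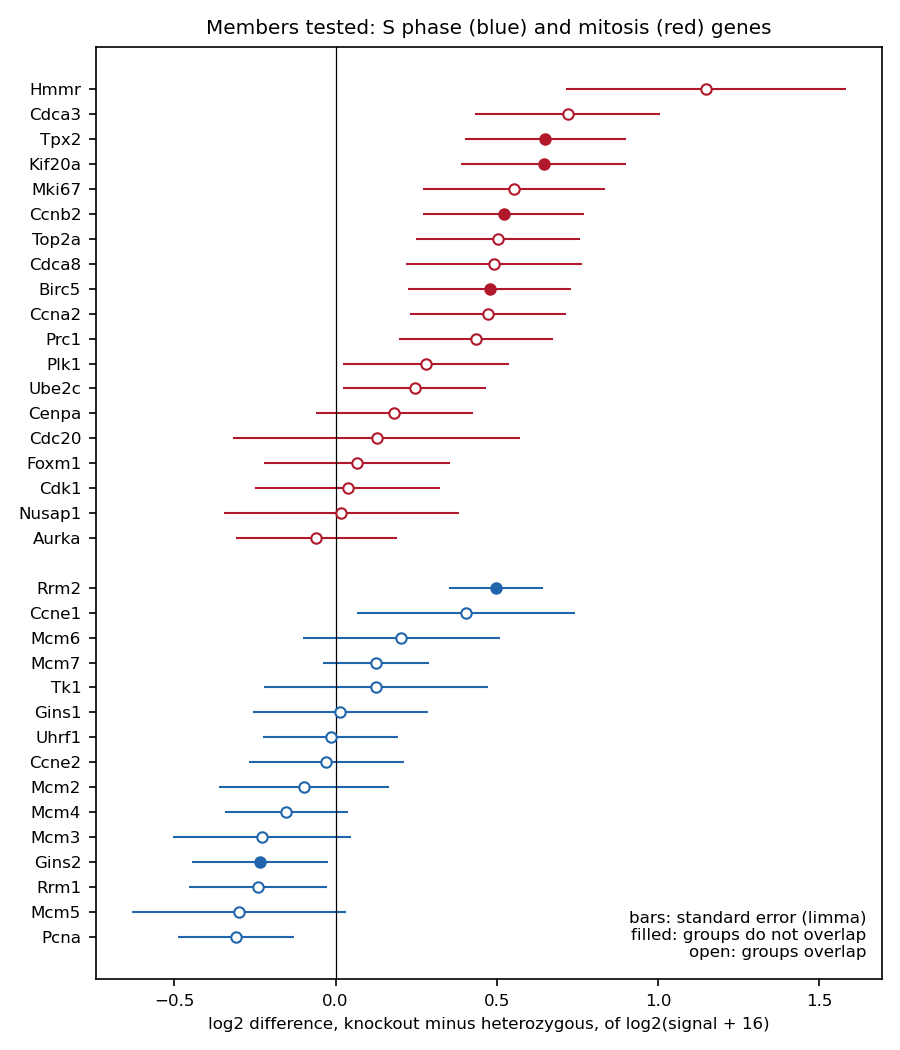
Log2 difference (knockout minus heterozygous, of log2(signal + 16)) of each tested gene with its limma standard error, mitosis genes in red above and S phase genes in blue below, filled where the 3 knockout and 3 heterozygous arrays do not overlap. The red points lie to the right of 0 except Aurka at -0.06, while the blue points spread from -0.31 to 0.498.

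The same class difference was then followed on each array. For every gene the deviation from its own mean over the 6 arrays was taken, and the median over each class was read array by array. The mitosis median was -0.41, -0.05 and -0.06 in heterozygous replicates 1, 3 and 5, and 0.495, -0.02 and 0.07 in knockout replicates 2, 4 and 6. The knockout samples thus lay above the heterozygous ones in every case, but knockout replicate 2 was far above the rest and heterozygous replicate 1 far below. The S phase median was -0.11, 0.03 and 0.12 in the heterozygous samples and 0.27, -0.23 and -0.04 in the knockout samples, so the groups overlapped. The mitosis median minus the S phase median was -0.31, -0.08 and -0.18 in heterozygous replicates 1, 3 and 5 and 0.22, 0.21 and 0.11 in knockout replicates 2, 4 and 6. Every heterozygous sample thus lay below every knockout sample in this value. As genes were centred on their mean over the same 6 arrays, opposite signs in the groups follow from the class difference and are no further support for it. The medians of all genes tested stayed between -0.07 and 0.02 over the arrays.

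**Figure D2:**
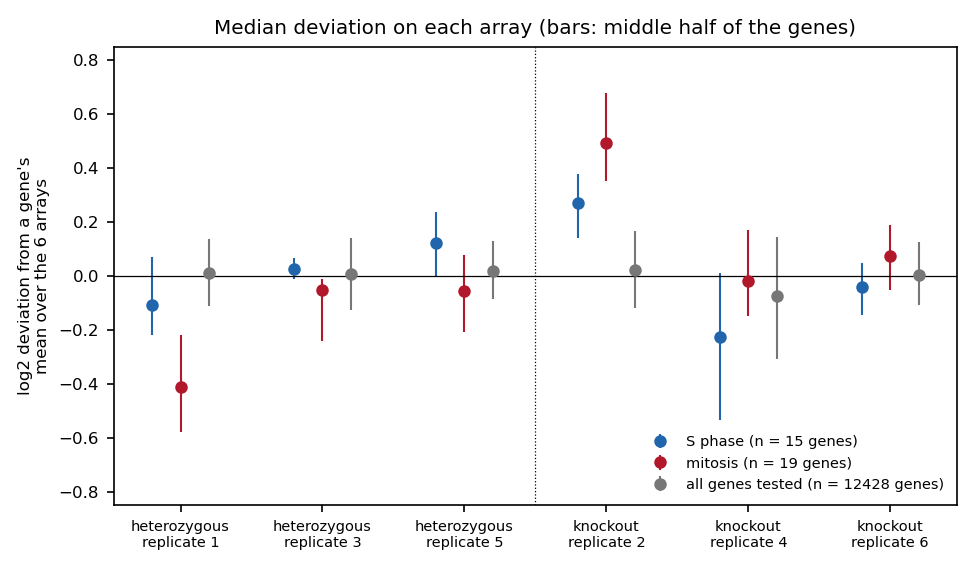
Median over genes of the log2 deviation from each gene's mean over the 6 arrays, for 15 S phase genes (blue), 19 mitosis genes (red) and all 12428 genes tested (grey), with bars from the 25th to the 75th percentile of genes. Red lies below blue on each heterozygous array and above blue on each knockout array, and knockout replicate 2 is the highest array for both classes.

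Knockout replicate 2 was the array with the highest signal for 14 of 19 mitosis genes and 8 of 15 S phase genes. Heterozygous replicate 1 was the lowest for 11 mitosis genes and knockout replicate 4 the lowest for 8 S phase genes. Of all 12428 genes tested, 2299 were highest in knockout replicate 2 and 1535 lowest in heterozygous replicate 1. Knockout replicate 4 was the lowest for 4493 of all genes, more than any other array, so low values there are not particular to the S phase genes. The filter was applied anew each time an array was left out, so the mitosis genes tested are not the same in every setting. Without knockout replicate 2, 14 of 19 mitosis genes were higher with a median of 0.32, beside 41.5% of all genes. At an unadjusted p under 0.05, 0 of them were higher, beside 3.11% of all genes. Without heterozygous replicate 1, 15 of 20 were higher with a median of 0.30, beside 44.8% of all genes, and 1 had such a p, beside 2.37%. Without knockout replicate 4, the array that stood apart, 20 of 20 were higher with a median of 0.53, beside 49.4% of all genes, and 6 had such a p, beside 2.9%. In that setting 10 of 15 S phase genes were higher with a median of 0.05. The S phase count was 3 of 15 without knockout replicate 2, with a median of -0.22. The difference between the class medians, 0.501 with all arrays, was 0.42 to 0.545 when any 1 array was left out.

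**Figure D3:**
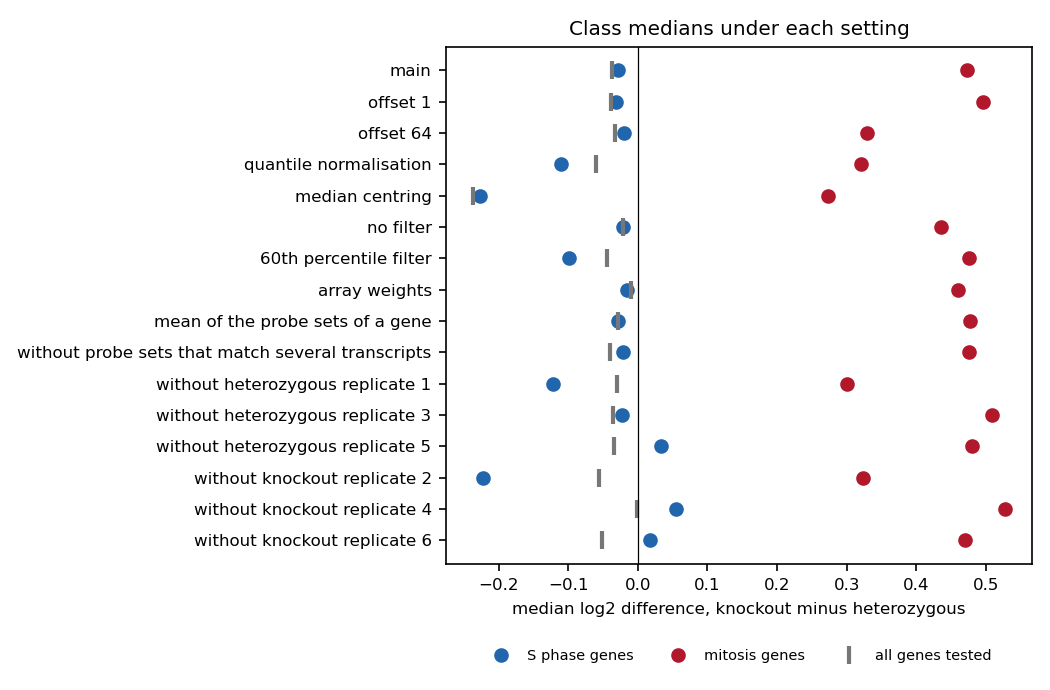
Median log2 difference of mitosis genes (red), S phase genes (blue) and all genes tested (grey bars) with all arrays under the main and other settings and with each array left out. The red median lies between 0.27 and 0.53 throughout, and the blue median lies between -0.23 and 0.05, on either side of 0.

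Among the S phase genes, those that make deoxynucleotides did not move together. Rrm2, the small subunit of ribonucleotide reductase whose level follows S phase, stood at 940 in heterozygous replicate 1, 1149.8 in replicate 3 and 1233 in replicate 5, and at 1661, 1539 and 1488 in knockout replicates 2, 4 and 6. All knockout samples lay above all heterozygous samples. The log2 difference was 0.498 ± 0.15 (SE), which did not pass (limma adjusted p = 0.370). This probe set is of a kind that can match several transcripts, and the other tested probe set of Rrm2 gave 0.28, with 344, 271 and 336 in heterozygous samples and 693, 182 and 442 in knockout samples, where knockout replicate 4 was the lowest of all. Rrm1, the large subunit, stood at 469, 387 and 416 in heterozygous samples and at 407, 271 and 407 in knockout samples, a log2 difference of -0.24 ± 0.21 (SE, limma adjusted p = 0.709). The groups overlapped, and without knockout replicate 4 the difference was -0.05. Tk1, thymidine kinase of the salvage pathway, gave 0.12, with knockout samples at 122, 35.9 and 64.1 on either side of the heterozygous range of 52.5 to 65.1. Tyms, thymidylate synthase, lay under the filter on each of its probe sets, with 29.3 to 47.0 on the brightest.

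No replication fork gene passed the test, and their differences lay on both sides of 0. Pcna, the sliding clamp that holds the polymerase on DNA, stood at 1817, 1955 and 2051 in heterozygous samples and at 1851, 1161 and 1773 in knockout samples, a log2 difference of -0.31 ± 0.18 (SE, limma adjusted p = 0.541). Without knockout replicate 4, the low sample, the difference was -0.10. The Mcm2 to Mcm7 genes encode the ring of the replicative helicase. Their differences were -0.10 for Mcm2, -0.23 for Mcm3, -0.15 for Mcm4, -0.30 for Mcm5, 0.20 for Mcm6 and 0.12 for Mcm7, so 4 of 6 were lower, and none passed. Mcm5 stood at 216, 250.1 and 352 in heterozygous samples and at 331, 125 and 232 in knockout samples, and its difference of -0.30 ± 0.33 (SE, limma adjusted p = 0.770) became 0.05 without knockout replicate 4. On a dimmer Mcm5 probe set under the filter the knockout samples, at 57.2, 54.1 and 42.6, lay above the heterozygous ones at 34.3, 12.7 and 41.3. The probe sets of this gene thus disagreed. The probe sets that stood for Mcm2 to Mcm7 were all of the kind that can match several transcripts. With such probe sets left out, Mcm5 had no value. Knockout replicate 4 was the lowest of the 6 for each of the 4 tested probe sets of Mcm3, whose differences ran from -0.57 to 0.05. Mcm7 also had 4 tested probe sets, with -0.13 to 0.31.

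Gins1 and Gins2 encode subunits of the GINS complex, which joins the helicase when origins fire. Gins2 stood at 169.97, 163 and 194 in heterozygous samples and at 161, 135 and 145 in knockout samples, so the groups were apart by a small margin, knockout samples being lower. The log2 difference was -0.23 ± 0.21 (SE, limma adjusted p = 0.714). The other tested Gins2 probe set gave -0.09 with overlapping groups, at 132, 47.2 and 85.4 in heterozygous and 71.3, 70.9 and 87.3 in knockout samples. Gins1 gave 0.02. The E cyclins, which with Cdk2 drive entry into S phase, gave 0.41 for Ccne1 and -0.03 for Ccne2. For Ccne1 the samples stood at 129.7, 213 and 187 in heterozygous and at 234, 382 and 142 in knockout replicates 2, 4 and 6, a difference of 0.41 ± 0.34 (SE, limma adjusted p = 0.684). It rested on knockout replicate 4, without which it was 0.07, and its other probe set gave 0.05. Uhrf1, which takes part in the copying of DNA methylation to the new strand, gave -0.01.

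**Figure D4:**
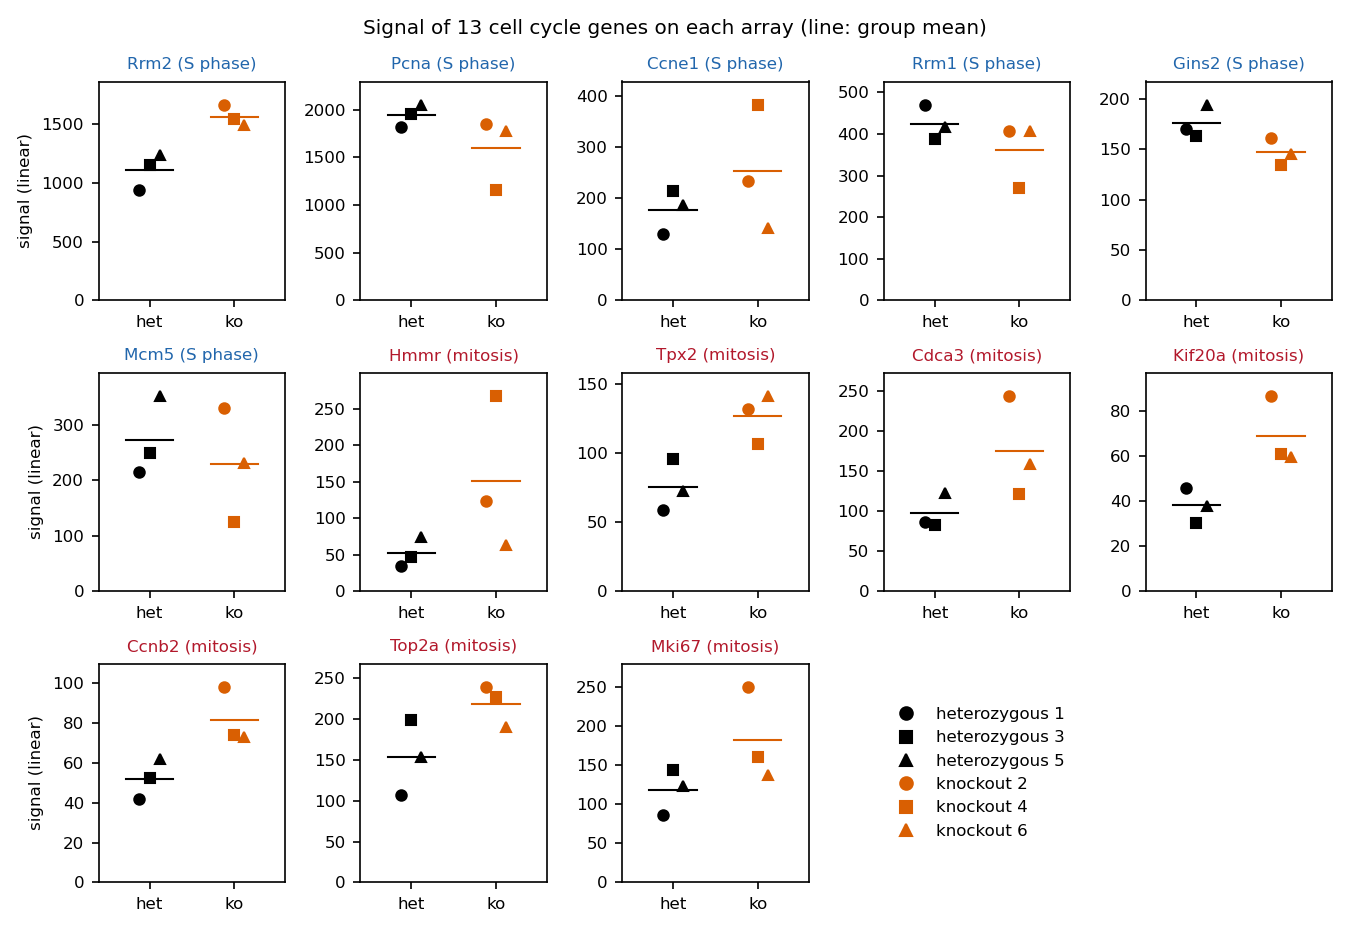
Linear signal of 13 genes on each array, heterozygous samples (het) in black and knockout samples (ko) in orange, with the group mean as a line and a symbol for each replicate. In Rrm2, Tpx2, Kif20a and Ccnb2 the orange points lie wholly above the black ones, while in Pcna, Rrm1 and Mcm5 knockout replicate 4 is the lowest point.

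Among the mitosis genes, the common markers of dividing cells were higher in knockout samples within overlapping ranges. Mki67, the Ki-67 protein of the surface of mitotic chromosomes, stood at 86.3, 143 and 124 in heterozygous samples and at 249.8, 160.3 and 138 in knockout samples. Only knockout replicate 6 fell within the heterozygous range. The log2 difference was 0.55 ± 0.28 (SE, limma adjusted p = 0.483), and it was 0.32 without knockout replicate 2. Top2a, the topoisomerase that untangles sister chromatids, stood at 107, 199 and 153 in heterozygous samples and at 239, 226 and 191 in knockout samples, a difference of 0.50 ± 0.25 (SE, limma adjusted p = 0.478). It was 0.29 without heterozygous replicate 1, the lowest sample.

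Of the cyclins that act with Cdk1, Ccna2 and Ccnb2 were measured, and both had higher means in knockout samples without passing the test. Cdk1 itself, the kinase that starts mitosis, was at 0.04. Ccnb2, a B cyclin, stood at 41.9, 52.2 and 61.8 in heterozygous samples and at 97.9, 73.6 and 73.0 in knockout samples, and the groups did not overlap. Its log2 difference was 0.52 ± 0.25 (SE, limma adjusted p = 0.453). Ccna2, cyclin A of S phase and G2, gave 0.47 on its brightest probe set (limma adjusted p = 0.482), with 147 to 206 in heterozygous and 192 to 302 in knockout samples, and 0.65 on the other, where 113 to 156 in knockout samples lay above 70.3 to 79.4. Foxm1, the transcription factor of this wave, gave 0.07, with 35.8 to 75.6 and 56.8 to 73.5. Another Foxm1 probe set went the other way, with 9.50 to 40.1 in knockout samples below 58.9 to 68.8 in heterozygous samples. Its log2 difference was -1.04. The filter removed it through its low knockout values, so it was not tested.

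Genes of the spindle and of microtubule motors ranged from near 0 to the largest difference of any member. Hmmr, a spindle assembly factor and hyaluronan receptor, had the largest log2 difference of any member, 1.15 ± 0.43 (SE, limma adjusted p = 0.376). It stood at 34.7, 46.7 and 74.5 in heterozygous samples and at 124, 267 and 63.1 in knockout samples. Knockout replicate 4 was far above the rest and replicate 6 lay within the heterozygous range, and without replicate 4 the difference was 0.67. Tpx2, which activates Aurora A at the spindle, stood at 58.7, 95.4 and 72.4 in heterozygous samples and at 132, 106 and 141 in knockout samples, so the groups did not overlap, and it differed by 0.65 ± 0.25 (SE, limma adjusted p = 0.377). Kif20a, a kinesin of cytokinesis, stood at 46.1, 30.6 and 38.1 and at 86.8, 61.0 and 59.7, again without overlap, a difference of 0.65 ± 0.26 (SE, limma adjusted p = 0.390). Since its heterozygous mean lay under the filter, its presence among the tested genes depended on the knockout values. Prc1, which bundles the central spindle, gave 0.44, and Nusap1, which binds spindle microtubules, gave 0.02 with knockout samples from 75.1 to 245.

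The chromosomal passenger complex corrects attachments between chromosomes and spindle. Its subunit Birc5, survivin, was level in heterozygous samples, at 169.7, 171 and 168, and stood at 349, 189.6 and 214 in knockout samples. All knockout samples lay above, and the difference was 0.48 ± 0.25 (SE, limma adjusted p = 0.500), with most of it in knockout replicate 2. Cdca8, borealin, gave 0.49, with 130.4 to 215 in heterozygous and 211 to 348 in knockout samples. Aurkb, the kinase of the complex, lay under the filter, with 27.8 to 49.2 and 33.0 to 63.3. Cdca3, a trigger of mitotic entry, stood at 86.5, 83.1 and 122.4 in heterozygous samples and at 244, 122.2 and 159 in knockout samples, where knockout replicate 4 was level with the highest heterozygous sample. Its difference was 0.72 ± 0.29 (SE, limma adjusted p = 0.390).

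For 5 further tested genes of mitosis the groups overlapped and the differences ran from -0.06 to 0.28. Aurka, the centrosome kinase, gave -0.06, and Plk1, which drives spindle assembly, gave 0.28. Cdc20, the activator of the anaphase-promoting complex, gave 0.13 with knockout samples at 247, 48.5 and 119, on both sides of the heterozygous range of 81.9 to 131. Ube2c, the ubiquitin carrier of that complex, gave 0.25, and Cenpa, the histone of the centromere, gave 0.18.

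A further 7 genes with probe sets lay under the filter and were not tested, 6 of them of mitosis and Tyms of S phase. On the brightest probe set of each, knockout samples lay above heterozygous samples for the checkpoint kinase Bub1 (35.7 to 73.4 against 14.3 to 23.5) and the kinetochore motor Cenpe (50.04 to 69.1 against 22.7 to 36.0). The groups overlapped for Aurkb, for Bub1b, a checkpoint protein (34.6 to 48.5 against 30.5 to 44.7), and for Kif11, the motor that separates spindle poles (22.3 to 57.9 against 21.8 to 34.1). They also overlapped for Kif23, a motor of cytokinesis (3.29 to 55.2 against 24.6 to 61.6). How often groups do not overlap over all probe sets under the filter was not computed. The values of Bub1 and Cenpe are therefore not read as a result about the members. With no filter, so that all 41 genes counted, 23 of 25 mitosis genes were higher with a median of 0.44, and 7 of 16 S phase genes with a median of -0.02, beside 46.2% of all genes.

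Of the 13 members with several tested probe sets, 9 had the same direction on each. The exceptions were Gins1, Mcm2, Mcm3 and Mcm7, all of S phase. For Ccna2, Cdc20 and Prc1, the mitosis genes with several, each tested probe set was higher in knockout samples. Among genes with a promoter window, the 13 tested mitosis genes with a CHR match had a median log2 difference of 0.44, from -0.06 to 1.15. Only 2 tested mitosis genes had a window without a match, so no comparison was made.

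Further genes of the same processes had list medians between -0.04 and 0.10. No gene of these lists passed the test. Of 19 further genes of the kinetochore, spindle and cytokinesis, 13 were higher, but with a median log2 difference of 0.07 and a range from -0.51 to 0.84. At an unadjusted p under 0.05 there were 0 in either direction. Aspm, which was higher, passed the filter through its knockout values alone, and Spc25, which was lower, through its heterozygous values alone. With no filter 20 of 29 genes of this list were higher with a median of 0.06, beside 46.2% of all genes. Smc4, a condensin subunit, gave 0.36 ± 0.17 (SE, limma adjusted p = 0.446), and Kif18a, a kinesin that aligns chromosomes, gave -0.51 ± 0.24 (SE, limma adjusted p = 0.452), and neither overlapped between groups. The median of this list was 0.32 without knockout replicate 4, with 20 of 22 genes higher, beside 49.4% of all genes. It was -0.06 without knockout replicate 2, with 7 of 19 higher, beside 41.5% of all genes. As the filter was applied anew, the genes tested are not the same in these settings. The difference of this list from the mitosis members was not tested.

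The S phase lists lay close to all genes, as the S phase members did. Of 10 genes of origin licensing and firing 6 were higher (median 0.10), with Orc1, a subunit of the origin recognition complex, at 0.62 and Cdc7, the kinase that fires origins, at 0.49. Orc1 and Cdc45 passed the filter through their knockout values alone, with heterozygous log2 means of 5.61 and 5.86 under the limit of 5.90. With no filter 7 of 11 genes of this list were higher with a median of 0.098, beside 46.2% of all genes. Of 17 polymerase and fork genes 8 were higher (median -0.04), with Pole, the leading strand polymerase, at 0.67 and Rpa1, which coats single strands, at -0.20. Of 11 E2F and DREAM regulators 7 were higher (median 0.03). Among them E2f1, an activator of S phase genes, had a mean of 58.1 ± 5.75 against 93.0 ± 21.9 in the knockout group (SD, n = 3 for both), which is 0.54 on the log2 scale without overlap (limma adjusted p = 0.444), and Rbl2, a pocket protein of resting cells, gave -0.21. Of 8 G1 cyclins and kinases 4 were higher (median 0.02), with the phosphatase Cdc25b at 0.33 and cyclin D1, Ccnd1, at 0.19.

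Inhibitors of the cycle were as often higher as lower, 6 and 6 of 12 (median -0.01). At an unadjusted p under 0.05, 2 were lower and 0 higher, beside 3.2% and 3.15% of all genes. Cdkn1c, the inhibitor p57, had a mean of 2208 ± 75.1 against 1657 ± 410.5 in the knockout group (SD, n = 3 for both), in log2 -0.44 ± 0.17 (SE, limma adjusted p = 0.377) without overlap. Cdkn1a, the inhibitor p21, had means of 4711 ± 389 and 3896 ± 455 (SD, n = 3 for both), a difference of -0.28 ± 0.11 (SE, limma adjusted p = 0.394), and the groups overlapped.

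**Figure D5:**
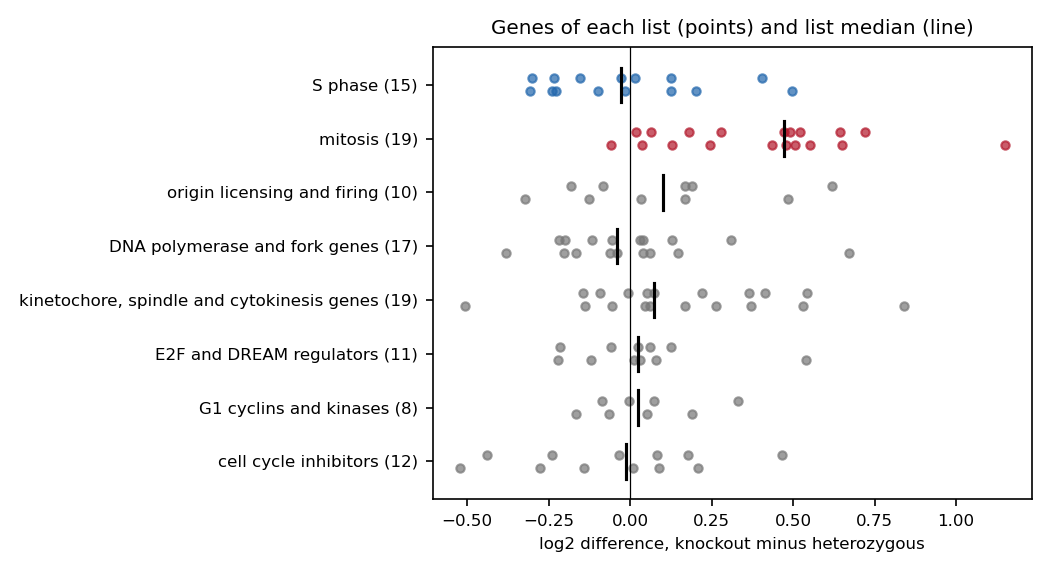
Log2 difference (knockout minus heterozygous) of each tested gene of the 2 member classes and 6 further cell cycle lists, with the number of genes in brackets and the list median as a line. The mitosis members centre on 0.47 and the other lists between -0.04 and 0.10.

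Markers of other cell types were read beside these values. The mitosis members summed to 1825 to 2316 in heterozygous and 2583 to 3727 in knockout samples. Markers of osteoclasts were higher in 3 of 3 tested genes (median 1.37), with a summed signal of 350.1 to 481 in heterozygous and 649 to 1675 in knockout samples, and 5 more osteoclast markers lay under the filter (Calcr, Ocstamp, Dcstamp, Oscar and Atp6v0d2). Osteoblast and cartilage markers were higher in 7 of 8 genes (median 0.600), with sums of 13636 to 15451 and 18572 to 23571. Macrophage markers were higher in 10 of 13 (median 0.05), with overlapping sums of 9010 to 12177 and 9643 to 13319. Without knockout replicate 4 they were higher in 13 of 13 (median 0.29), and without knockout replicate 2 in 6 of 13 (median -0.01). Such moves were not particular to this list. Of the polymerase and fork genes, 13 of 17 were higher without knockout replicate 4 and 4 of 17 without knockout replicate 2. In these settings 49.4% and 41.5% of all genes were higher. Endothelial markers were higher in 1 of 10 (median -0.28), with sums of 7036 to 11704 and 3520 to 10636, and in 8 of 10 without knockout replicate 4. Granulocyte markers were higher in 0 of 4 and lymphocyte markers in 0 of 2. Both tested erythroid markers were lower, with sums of 126 to 314 and 74.0 to 165. Pericyte and smooth muscle markers were higher in 1 of 7 (median -0.33). The part of these cell types in the difference of the mitosis genes was not tested.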

How the data were processed

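Total RNA of the stria vascularis was extracted with a Qiagen kit, labelled by the NuGen Ovation protocol and hybridised to Affymetrix mouse expression arrays, per the labels' protocols. The authors deposited linear signal intensity from GCOS (named in the submitters' processing notes without a version). Of 45101 probe sets on each of 6 arrays, 64 were controls. The mean without the outer 2% at both ends was 500.002 on every array, which shows a common scaling, and none was added. Precision is limited by the number of arrays.

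Signals were turned to log2(signal + 16), probe sets under the 40th percentile of the mean were removed, and 27022 entered a two-sided limma fit (version 3.58.1 under R 4.3.3, eBayes with trend, Benjamini-Hochberg, threshold 0.05). An exact permutation test of 3 against 3 samples cannot go below 0.1 and was not used. Genes were named from the platform annotation where it gives 1 symbol, which held for 34945 probe sets, while 932 had several and 9160 none. For 12428 genes the brightest tested probe set stood for the gene. Values are given in full for the 6 genes of each class with the smallest unadjusted p and for Mki67, Top2a and Pcna, with others in less detail, and Birc5 was chosen after its values were seen. Of each pathway list the 2 genes with the smallest p are named. The members and lists were chosen with earlier results of these data known. The fit was tested on simulated data. Python 3.11.15 with matplotlib 3.10.9 drew the plots.

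Alternatives were offsets of 1 and 64, quantile normalisation, median centring, no filter, a 60th percentile filter, no variance trend, array weights, averaging the probe sets of each gene, leaving out probe sets that can match several transcripts, and leaving out each array. The counts of genes higher in each class under these settings were added after seeing the data.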

Additional observations from a re-analysis of the deposited data

How the results depend on the processing

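No member probe set was called under any of 14 alternatives, and the lowest adjusted p of any of the 13 genes given in full was 0.147, for Hmmr without knockout replicate 6. The count over all probe sets, 1 in the main setting, was 3 with quantile normalisation and with median centring, 25 with array weights, 0 with no filter or the 60th percentile filter, and 0 to 13 when 1 array was left out. The mitosis median was 0.27 to 0.53 over 15 alternatives and the mitosis minus S phase difference 0.35 (offset 64) to 0.57 (60th percentile filter). Median centring moved the median of all genes by -0.20, and the S phase median to -0.23 with 3 of 15 genes higher. Relative to all genes the classes stood there at 0.51 and 0.01, as in the main setting. This had to be so, because centring moves the difference of every gene by the same amount, and it is no further support. With the 60th percentile filter 6 of 6 mitosis and 3 of 11 S phase genes were higher. Leaving out 1 array gave 3 to 10 S phase genes higher and 14 to 20 mitosis genes higher, with 19 or 20 mitosis genes tested as the filter was applied anew. Of the 13 genes, Mcm5 changed sign, to 0.051 without knockout replicate 4, and ranged from -0.60 to 0.051 when 1 array was left out. Rrm2 was 0.28 without probe sets that can match several transcripts. Under the 60th percentile filter 7 of the 13 had no value. No paired analysis was possible because the genotypes share no replicate number. Dim signals limit the mitosis genes, of which 6 pass the 60th percentile filter. Gins2 was -0.09 without probe sets that can match several transcripts.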

Other observations

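Of the 47 member probe sets under the filter, the knockout samples lay wholly above the heterozygous ones on 6 (of Bub1, Cenpa, Cenpe, Kif11, Mcm5 and Tyms) and wholly below on 2 (of Foxm1 and Nusap1). On that of Mcm5 the direction was opposite to the tested probe set, with a log2 difference of 0.62 against -0.30. The same shares over all probe sets under the filter were not computed, so these counts are not read as a result about the members. Foxm1 had 3 probe sets under the filter. On 1 of these, every knockout sample lay below every heterozygous sample, at 40.1, 9.50 and 23.1 in knockout replicates 2, 4 and 6 against 58.9, 68.8 and 61.3. The log2 difference there was -1.04, whereas the tested probe set gave 0.07 and overlapped between groups. Rrm2 had 1 more probe set under the filter, at 100.2, 18.0 and 43.3 in knockout samples against 59.1, 30.5 and 36.2 in heterozygous samples, with knockout replicate 4 again the lowest. Hmmr had 4 more, all overlapping between groups, and on 1 of them knockout replicate 4 stood at 40.5 beside 43.7 in replicate 2, while on the tested probe set it stood at 267 beside 124. The probes behind these probe sets were not analysed here, so which transcript each measures was not tested.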
